A study of Mus musculus with 46 samples.

Results

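Ribosome-bound RNA of AgRP neurons was compared between fasted mice that had received leptin and mice that had never been fasted. The comparison was defined by the labels: the 4 leptin-treated and the 3 fed AgRP RNA libraries, 7 of the 46 samples of the series. The 4 libraries from fasted, vehicle-injected mice are set beside these where the state before leptin matters. The question was which transcripts had come back to the fed level after leptin, which had not, and which had gone past it.

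The animals of all AgRP libraries were male C57BL/6J NuTRAP AgRP mice aged 6 to 11 weeks, on chow. NuTRAP is a Cre-dependent transgene encoding a GFP-tagged L10a ribosomal subunit and mCherry-tagged RANGAP, a nuclear envelope protein, and here the AgRP-IRES-Cre allele switched it on, in controls and treated mice alike. Fed mice had food at all times and received vehicle (PBS). Leptin-treated mice were fasted overnight for 18 to 20 h and then received leptin at 5 mg/kg intraperitoneally. The third state was the same fast followed by vehicle. Injections were given at zeitgeber time 2 to 4, and all mice were killed 3 h later. Each library pooled the arcuate nuclei of 4 mice, and tagged ribosomes were pulled down with a GFP antibody (TRAP). This enriches RNA on ribosomes of cells with a history of Agrp-driven Cre. RNA of other cells was present in the pull-downs too, so a value does not by itself assign a transcript to AgRP neurons. Each library was a separate pool, and no fed library carried the number 2.

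AgRP neurons sit in the arcuate nucleus of the hypothalamus and drive feeding through the peptides AgRP and NPY and through GABA. They fire more when energy stores fall. Leptin, the hormone released by fat, acts on its receptor LEPR in these cells, chiefly through JAK2 and the transcription factor STAT3, which binds DNA elements of the form TTCNNNGAA and switches on feedback inhibitors such as SOCS3.

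Library totals were 25581041 to 38937168 counts in the fed and 29901460 to 54511107 in the leptin-treated group. Values below are CPM (counts scaled to a common library size) after TMM scaling, which corrects library sizes for composition, and differences are leptin minus fed on the log2 scale. Agrp and Npy were present in all 7 libraries. The libraries numbered 4 stood apart in every state: the astrocyte glutamate transporter Slc1a2 took 1.93% of counts in the fed and 2.36% in the leptin-treated library of that number, against at most 0.433% in the other AgRP RNA libraries. The summed level of 12 astrocyte markers ranged from 4290 to 22230 CPM in fed and from 3464 to 28460 CPM in leptin-treated libraries, and none of the markers was at 0. The 15 peptide and identity genes of AgRP neurons summed to 3395 to 4448 CPM in fed and 4157 to 8543 CPM in leptin-treated libraries. None of the 11 tested astrocyte markers passed the test, and with the replicate block 1 was higher (Agt) and 1 lower (Aqp4). In pooled tissue, fewer cells of a type and less RNA per cell cannot be told apart.

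Of 13401 genes tested, 500 (3.73%) were higher and 235 (1.75%) lower in leptin-treated than in fed AgRP neurons, 5.48% in all, at an adjusted p below 0.05 and a log2 difference beyond 0.5. The largest increases were in Fga, Fgb, Steap4, Slc10a6, Sphk1, Gpr151, Lyve1, Timp1 and Thbd. Fga, Fgb, Steap4 and Slc10a6 averaged under 1 CPM in both fed and fasted libraries and were tested only through the leptin-treated ones. Sphk1, Gpr151, Lyve1 and Timp1 averaged under 1 CPM in fed libraries, so apart from Thbd these ranks are a description. The largest decreases, Aknad1, Umodl1 and Sec14l3, were smaller. Among the higher genes 159 differed by more than 1 on the log2 scale and 36 by more than 2, and among the lower genes 35 and 0. The medians were 0.78 for the higher and -0.67 for the lower genes, beside 0.01 for all genes. In 496 of the 500 and 233 of the 235 (3.7% and 1.74% of the genes tested) the leptin-treated and fed libraries did not overlap, and across all tested genes 12.3% were non-overlapping upwards and 8.98% downwards. With the replicate number as a block, 715 were higher (5.34%) and 433 lower (3.23%), 8.57% in all, with 491 and 228 shared with the counts above. Without the 3 libraries numbered 4, an alternative chosen after seeing the data, 519 were higher and 365 lower. Leaving out single libraries moved the counts most for fed 4 (268 higher), fed 1 (108 lower) and fed 3 (115 lower).

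**Figure D1:**
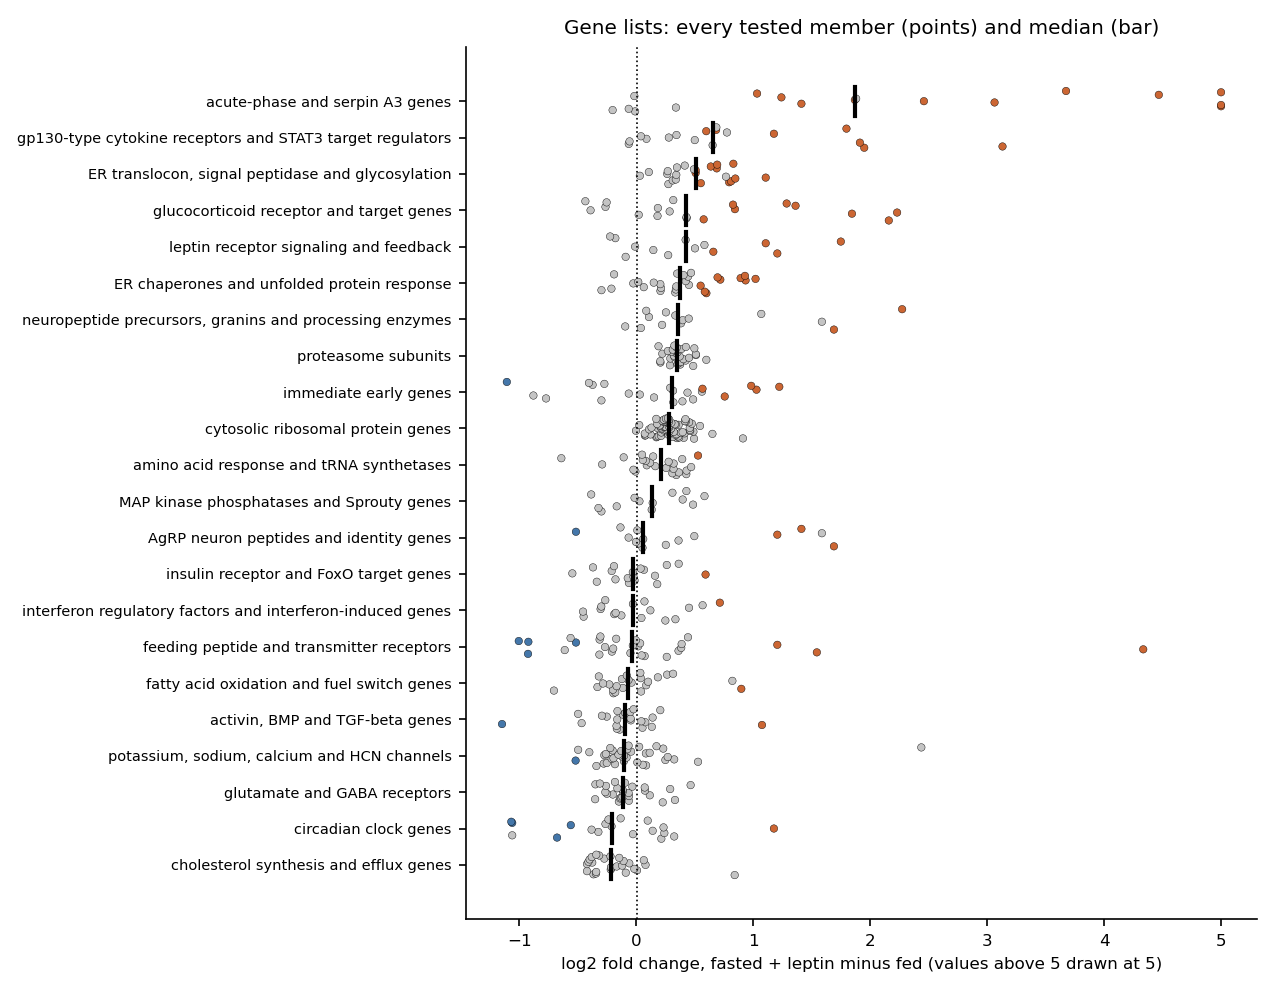
Log2 difference between leptin-treated and fed AgRP neurons for each tested member of 22 gene lists (rows, ordered by median). Points are genes, orange where higher, blue where lower and grey where the test was not passed; values above 5 are drawn at 5, black bars are list medians and the dotted line is the median of all genes, 0.01. In the top row, the acute-phase list, 5 of the tested genes passed the minimum level only through the leptin-treated libraries. All 23 genes of ER translocation lie right of 0.

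Feedback inhibitors and some STAT3 targets of the leptin receptor pathway were above the fed level. Of 13 tested members of the leptin receptor list, 4 were higher and 0 lower (median 0.42): Socs3, Socs2, Ptpn1 and Lepr. Over all genes 3.73% were higher and 1.75% lower. This list and those below were chosen with earlier results of these data known. Socs3, the feedback inhibitor of the leptin receptor, was at 9.06, 13 and 5.89 CPM in fed and at 35.7, 30.7, 35.5 and 23.9 CPM in leptin-treated libraries. The groups were well separated, and the fasted libraries lay below both, at 1.79 to 2.72 CPM. The difference from fed was 1.75 ± 0.25 (SE, adjusted p = 0.00247), whereas the fasted-minus-fed difference, which uses the same fed libraries, was -1.98 (adjusted p = 0.00169). Socs2, another suppressor of cytokine signaling, gave 1.11 ± 0.16 (adjusted p = 0.00264). Ptpn1, the phosphatase PTP1B that acts on JAK2, gave 0.66 ± 0.09 (adjusted p = 0.00178).

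Lepr behaved differently. It measured 87.3, 110 and 39.1 CPM in fed, 158 to 211 CPM in fasted and 202, 174, 229 and 123 CPM in leptin-treated libraries. The leptin-treated libraries were all above the fed ones, by 1.21 ± 0.31 (adjusted p = 0.0378), at about the fasted level (leptin minus fasted 0.01, adjusted p = 1.00). The fed library numbered 4 was the lowest. Leaving out single libraries ended the call in 5 of 7 cases, with the highest adjusted p, 0.0981, without fed 1.

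The STAT3 target list, which also holds receptors of the gp130 type, had 7 of 17 members higher and 0 lower (median 0.65), and 11 higher with the replicate block. The shares of all genes called higher were 3.73% and, with the block, 5.34%. Sbno2, a transcriptional co-regulator induced by gp130 cytokines, was at 18 to 26 CPM in fed, 12.8 to 15.3 CPM in fasted and 66.0 to 84.6 CPM in leptin-treated libraries (1.80 ± 0.14, adjusted p = 0.000125). Arid5a, an RNA-binding protein that stabilizes cytokine transcripts, had like levels in fed (5.35 to 6.61 CPM) and fasted (4.83 to 6.44 CPM) libraries and 18 to 27 CPM after leptin (1.95 ± 0.16, adjusted p = 0.000209). Atf3, a stress-induced transcription factor, was at 4.24 to 6.35 CPM in fed and 26.2 to 55.9 CPM in leptin-treated libraries (3.13 ± 0.31, adjusted p = 0.000418). In these genes the leptin-treated libraries exceeded both other states. Nfil3, a transcription factor linked to the clock, did not show that order: its leptin-treated libraries (24.5 to 32.6 CPM) lay between fed (10.7 to 15.2 CPM) and fasted (34.9 to 42.5 CPM), 1.18 ± 0.14 above fed (adjusted p = 0.00103).

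The acute-phase and serpin A3 list had 22 measured members, of which 5 were too low to test. Another 5 (Fga, Fgb, Steap4, Slc10a6, Serpina3m) averaged under 1 CPM in both fed and fasted libraries and were tested only because they were higher after leptin, so their calls are given as a description. Of the 12 others, 7 were higher (Serpina3c, Serpina3g, Serpina3h, Serpina3i, Serpina3n, Spp1, Timp1) and 0 lower, beside 3.73% and 1.75% of all genes. The rest, named after their values were seen, did not pass: Cp (0.34), C3 (-0.20), C4b (-0.06), Serping1 (-0.01) and A2m (-0.01). Those too low to test were Fgg, Hp, Lcn2, Lrg1 and Saa3, so the list did not rise as a whole. Fga encodes the alpha chain of fibrinogen, a clotting protein made mainly by liver. Its raw counts were 2, 8 and 1 in the 3 fed libraries, 13 to 27 in the fasted ones and 912, 991, 3362 and 377 in the leptin-treated ones. Fgb, the beta chain, had 5 counts in all fed libraries together and 70 to 276 in each leptin-treated library. Against so few counts the fitted differences (8.12 ± 0.76 and 6.05 ± 0.65) depend on the prior count and give no exact fold. Steap4, a metalloreductase, had 29 counts over the fed, 37 over the fasted and 2131 over the leptin-treated libraries (5.46 ± 0.60, adjusted p = 0.000727). Slc10a6, a transporter of sulfated steroids, rose from 0.0809 to 0.376 CPM in fed to 3.79 to 6.36 CPM after leptin (4.47 ± 0.43, adjusted p = 0.000399). Timp1, an inhibitor of metalloproteinases, was at 0.401 to 1.17 CPM in fed and 8.29 to 13.7 CPM in leptin-treated libraries (3.67 ± 0.42, adjusted p = 0.000876). Serpina3i, a protease inhibitor of the serpin family, was at 7.06 to 11.8 CPM in fed, 4.54 to 6.76 CPM in fasted and 29.5 to 42.0 CPM in leptin-treated libraries (1.87 ± 0.21, adjusted p = 0.000752). The Serpina3 genes are near-identical copies, so how reads were divided among them is uncertain.

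**Figure D2:**
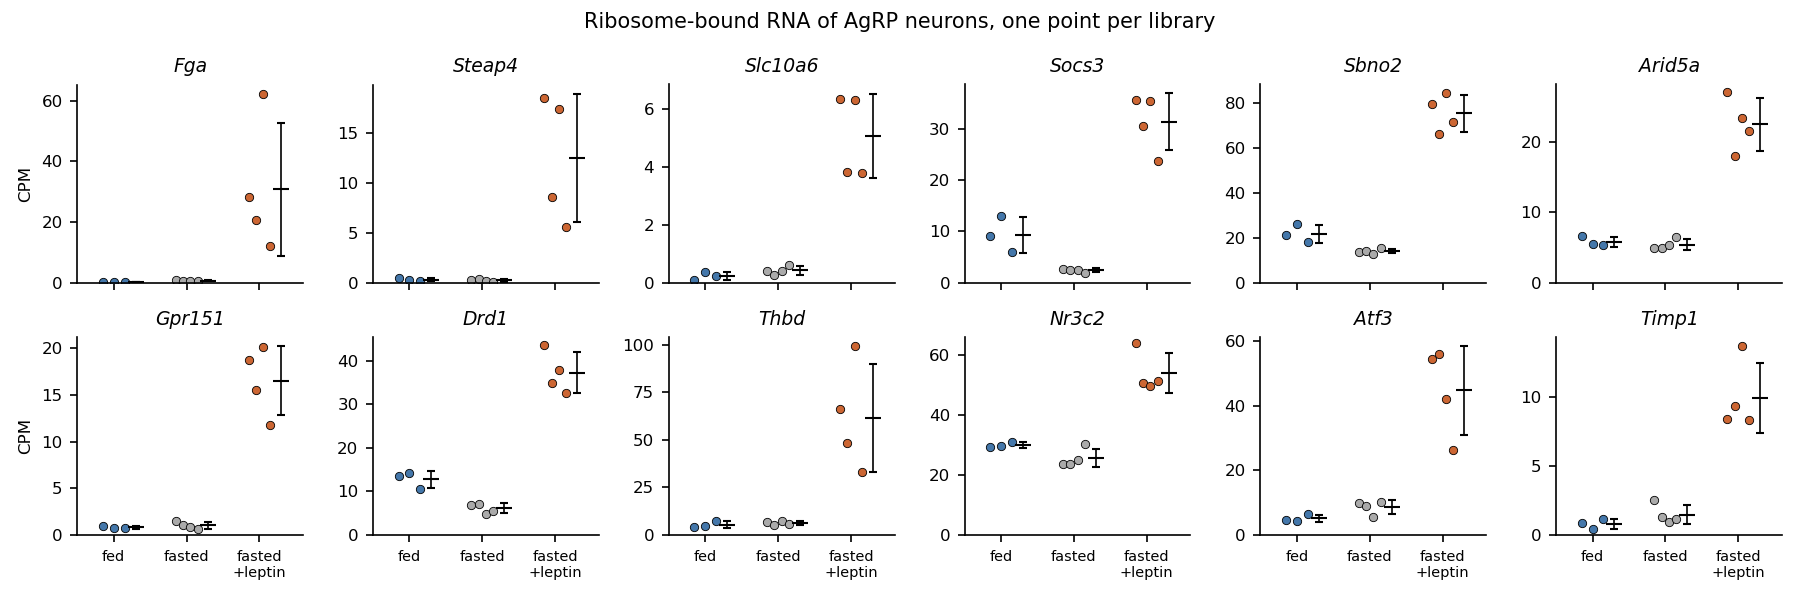
CPM of 12 transcripts in each AgRP RNA library; points are libraries of the fed (3), fasted (4) and leptin-treated (4) state, bars are mean ± SD beside them, and each panel has its own linear axis from 0. In every panel all 4 leptin-treated libraries lie above all fed and all fasted libraries, as for Gpr151 at 11.8 to 20.1 CPM.

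The letters TTCNNNGAA, the general form of a STAT element, stand in the 250 bases before an annotated start site of Socs3, Fga, Fgb, Steap4, Serpina3i and Sphk1. These stretches, chosen from the higher genes that hold the pattern, are shown because the genes are described here. RefSeq sequences (GRCm38.p6, matching the mm10 coordinates of the files) are written 5′ to 3′ on the strand of the gene, with the matching letters in capitals. The start sites are those of protein-coding genes. Those used for Socs3, Serpina3i and Sphk1 lie inside the gene interval. The stretches of Socs3 and Sphk1 are thus wholly, and that of Serpina3i partly, within the gene. Socs3 lies at chr11:117966079-117970336, Fga at chr3:83026153-83033627, Fgb at chr3:83042246-83049863, Steap4 at chr5:7960472-7982213, Serpina3i at chr12:104263045-104269509 and Sphk1, the kinase that makes sphingosine-1-phosphate, at chr11:116530836-116536675. The stretches are chr11:117969467-117969565 (minus strand), chr3:83025903-83025972 (plus), chr3:83049972-83050070 (minus), chr5:7960311-7960409 (plus), chr12:104262975-104263073 (plus) and chr11:116531751-116531836 (plus), in the order below.
Socs3: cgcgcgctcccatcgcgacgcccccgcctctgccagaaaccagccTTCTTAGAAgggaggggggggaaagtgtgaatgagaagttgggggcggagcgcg
Fga: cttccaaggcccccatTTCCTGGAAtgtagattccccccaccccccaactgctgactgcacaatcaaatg
Fgb: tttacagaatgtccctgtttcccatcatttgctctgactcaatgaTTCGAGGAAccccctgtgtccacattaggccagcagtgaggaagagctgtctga
Steap4: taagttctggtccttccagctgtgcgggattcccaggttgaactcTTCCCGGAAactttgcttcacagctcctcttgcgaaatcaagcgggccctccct
Serpina3i: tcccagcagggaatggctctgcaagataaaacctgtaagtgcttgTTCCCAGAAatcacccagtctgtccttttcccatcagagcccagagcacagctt
Sphk1: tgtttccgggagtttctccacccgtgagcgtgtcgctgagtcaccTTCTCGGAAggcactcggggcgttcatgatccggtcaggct

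A window of 250 bases before to 50 after a start site could be matched by symbol for 9914 of the 13401 tested genes. On either strand TTCNNNGAA occurred in the windows of 54 of 364 higher genes (14.8%), 12 of 168 lower genes (7.14%) and 819 of all 9914 (8.26%). The pattern of interferon regulatory factors, GAAA followed after any 2 bases by GAAA, occurred in 5.49%, 4.76% and 3.43%, and TGACGTCA, the cyclic AMP response element, in 3.30%, 1.19% and 3.60%. Matches of different patterns may share bases. These shares are descriptions of letters in a window and carry no test.

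Of 17 tested interferon genes 1 was higher and 0 lower, beside 3.73% and 1.75% of all genes. It was Stat2, a subunit of the interferon-activated complex ISGF3, at 7.88 to 9.95 CPM in fed and 13.6 to 19.4 CPM in leptin-treated libraries (0.72 ± 0.15, adjusted p = 0.0177). Its partner Irf9 was at 21.4 to 23.9 CPM and 25.4 to 36.5 CPM (0.45 ± 0.13, adjusted p = 0.0603) and did not pass. Irf3, an activator of interferon genes named here after its values were seen, was at 4.22 to 6.15 CPM in fed and 2.96 to 4.46 CPM in leptin-treated libraries (-0.45, adjusted p = 0.185). The list's median was -0.03.

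Gpr151, an orphan G protein-coupled receptor, was at 0.971, 0.753 and 0.71 CPM in fed, 0.658 to 1.54 CPM in fasted and 18.7, 15.5, 20.1 and 11.8 CPM in leptin-treated libraries. No leptin-treated library came near the other 2 states, and the difference from fed was 4.34 ± 0.30 (adjusted p = 7.45e-05). Gpr151 averaged 0.811 CPM in fed and 1.04 CPM in fasted libraries, about the minimum of 1 CPM. Its place in the test thus rested mainly on the leptin-treated libraries, and its call is given as a description. Drd1, the dopamine receptor coupled to stimulation of adenylyl cyclase, was at 13.5, 14.2 and 10.6 CPM in fed, 4.82 to 7.17 CPM in fasted and 43.5, 35.0, 38.0 and 32.7 CPM in leptin-treated libraries. Fasted libraries were thus the lowest and leptin-treated ones the highest, 1.54 ± 0.17 above fed (adjusted p = 0.000664). Thbd, thrombomodulin, was at 4.18 to 7.39 CPM in fed and 33.4 to 99.3 CPM after leptin (3.53 ± 0.37, adjusted p = 0.000516). Tnfrsf11b, the decoy receptor osteoprotegerin, had the Drd1 order, with 2.76 to 3.56 CPM in fed, 0.731 to 1.31 CPM in fasted and 5.68 to 9.23 CPM after leptin (1.19 ± 0.21, adjusted p = 0.00761).

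The feeding peptides of these neurons were near the fasted level 3 h after leptin. Agrp passed the test against fed with the replicate block and, narrowly, without it. Npy passed with the block but not without it. Agrp was at 314, 515 and 342 CPM in the fed libraries numbered 1, 3 and 4, and at 492, 1367, 2167 and 1010 CPM in the leptin-treated libraries 1 to 4. Library 1 was the lowest in each state, and the leptin-treated library 1 lay below the fed library 3, so the groups overlapped. The difference was 1.69 ± 0.47 (adjusted p = 0.0495), and 1.44 with the replicate block (adjusted p = 0.000188). All 3 numbered pairs were higher after leptin, by 0.65, 2.07 and 1.56. Leaving out single libraries ended the call in 6 of 7 cases (up to adjusted p = 0.172 without fed 1), as did leaving out the libraries numbered 4. Agrp in fasted libraries was at 726 to 2004 CPM, and leptin minus fasted was -0.12 (adjusted p = 1.00). Npy, the companion peptide, was at 369, 804 and 661 CPM in fed and 540, 1884, 3153 and 1776 CPM in leptin-treated libraries. It missed the threshold (1.59 ± 0.56, adjusted p = 0.108) and passed it with the block (1.35, adjusted p = 0.000297).

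Among 14 genes of neuropeptide precursors, granins and processing enzymes, 2 were higher (Vgf and Agrp), beside 3.73% of all genes, 0 were lower and the median was 0.36. With the block 4 were higher, beside 5.34% of all genes. Vgf, a granin-like precursor of secreted peptides, was at 366, 453 and 376 CPM in fed, 1559 to 2347 CPM in fasted and 1363, 1802, 2869 and 1673 CPM in leptin-treated libraries. Fed libraries were far below the other 2 states, which overlapped (leptin minus fed 2.27 ± 0.27, adjusted p = 0.00103). Scg2, the granin secretogranin II, was at 934 to 1477 CPM in fed and 1472 to 3493 CPM in leptin-treated libraries (1.07 ± 0.34, adjusted p = 0.0745; with the block 0.94, adjusted p = 2.55e-05). Pcsk1, the prohormone convertase, gave 0.45 ± 0.12 (adjusted p = 0.0398), under the minimum difference of 0.5.

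Of 15 genes that mark AgRP neurons 3 were higher (Agrp, Lepr, Serpina3c) and 1 was lower (Npy1r), with a median of 0.06. The shares of all genes were 3.73% higher and 1.75% lower. With the block 5 were higher, among them Isl1, a developmental transcription factor of arcuate neurons (0.50 ± 0.11 without the block). Otp, a transcription factor of these neurons, was at 61.3 to 84.2 CPM in fed, 91.6 to 126 CPM in fasted and 52.7 to 94.9 CPM in leptin-treated libraries. Its difference from fed was 0.01 with a 95% interval of -0.40 to 0.42. Acvr1c, the activin receptor ALK7, gave 0.05 (95% interval -0.39 to 0.50), with means of 580 CPM in fed, 843 CPM in fasted and 602 CPM in leptin-treated libraries. With the block both genes were called higher in fasted than in fed and lower after leptin than in fasted libraries. Without it neither change was called.

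Part of the genes that load and fold secreted proteins in the endoplasmic reticulum (ER) were above the fed level, and none was called below it. In the list of ER chaperones and the unfolded protein response 9 of 28 were higher and 0 lower (median 0.38), and in the list of ER translocation, signal peptidase and glycosylation 11 of 23 were higher, 0 lower, and 23 of 23 differences were positive (median 0.51). Over all genes 3.73% were called higher, and 6889 of 13401 differences were positive. Members of a list were measured in the same libraries, so their signs are not independent. Hspa5, the ER chaperone BiP, was at 487, 574 and 496 CPM in fed, 873 to 1210 CPM in fasted and 940, 1009, 1189 and 832 CPM in leptin-treated libraries (0.94 ± 0.16, adjusted p = 0.00545). Leptin-treated and fasted libraries covered nearly one range, and both lay above fed. Manf, a secreted ER stress protein, gave 1.02 ± 0.12 (adjusted p = 0.000894), and the disulfide isomerase P4hb gave 0.89 ± 0.14 (adjusted p = 0.00398). Of the translocation genes, Sec61b, a subunit of the protein-conducting channel, was at 14.5 to 16.8 CPM in fed and 27.2 to 42.6 CPM in leptin-treated libraries (1.11 ± 0.16, adjusted p = 0.00248). Sec61a1, Tram1 and Ostc, which belong to the same channel, its partners or the glycosylation complex, gave 0.85, 0.83 and 0.80. Atf4, the transcription factor of the integrated stress response, gave 0.60 ± 0.10 (adjusted p = 0.00640). The medians of leptin minus fasted were 0.01 and -0.04 for the 2 ER lists, and those of fasted minus fed, which shares the fed libraries, were 0.44 and 0.50.

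Other lists of the protein machinery lay a little above fed with few or no calls. None of 31 proteasome subunits passed (1 with the block), and all 31 differences were positive (median 0.35). Among 73 cytosolic ribosomal protein genes 0 passed (2 with the block), 72 were positive and the median was 0.28. Rpl10a, whose product is the subunit tagged in the transgene, was at 33.1 to 69.5 CPM in fed and 53.4 to 138 CPM in leptin-treated libraries (0.91 ± 0.36, adjusted p = 0.149; called with the block), and whether its reads came from the gene or the transgene was not tested. Of 24 genes of the amino acid response and tRNA synthetases 1 was higher, beside 3.73% of all genes. It was Tars, the threonyl-tRNA synthetase (0.53, adjusted p = 0.0240).

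**Figure D3:**
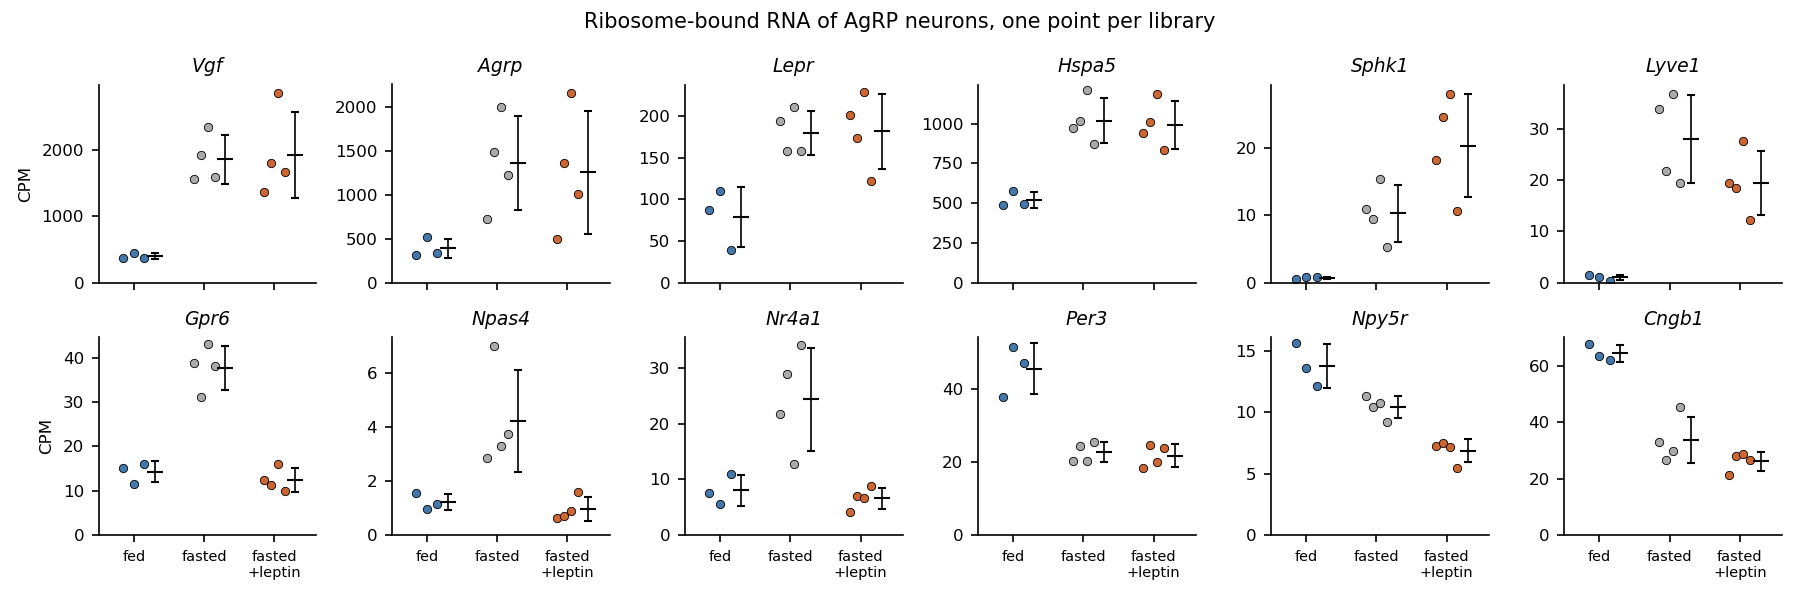
CPM of 12 transcripts in each AgRP RNA library, drawn as points for the fed (3), fasted (4) and leptin-treated (4) state with mean ± SD beside them; every panel has its own linear axis from 0. Vgf, Hspa5, Sphk1 and Lyve1 have leptin-treated libraries above all fed ones, Gpr6, Npas4 and Nr4a1 have leptin-treated libraries in or near the fed range and below the fasted one, and Per3, Npy5r and Cngb1 have leptin-treated libraries below all fed ones.

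The genes that differed most between fasted and fed libraries were followed into the leptin-treated state. Fasting alone gave 378 higher (2.82%) and 143 lower genes (1.07%), 3.89% in all, and leptin minus fasted gave 160 higher (1.19%) and 85 lower (0.634%), 1.83% in all. These comparisons share libraries with leptin minus fed, so their values are only set side by side. The 8 genes with the strongest rise and the 8 with the strongest fall on fasting were taken. Several stayed high. Lyve1, a hyaluronan receptor, was at 1.46, 1.13 and 0.376 CPM in fed, 19.6 to 37.0 CPM in fasted and 19.4, 18.5, 27.7 and 12.3 CPM in leptin-treated libraries (leptin minus fed 4.25 ± 0.44, adjusted p = 0.000516). Sphk1 was at 0.485 to 0.803 CPM in fed, 5.30 to 15.5 CPM in fasted and 10.6 to 28.1 CPM after leptin (4.89 ± 0.48, adjusted p = 0.000399). Both were far above fed in each leptin-treated library. The lysosomal glycoprotein gene Cd68 (3.02), Nlrc3, a NOD-like receptor (2.86), and Lpin3, a phosphatidate phosphatase (2.48), were also higher than fed. Svs2, a seminal vesicle secretory protein gene, was at 0.292 to 1.29 CPM in fed, 5.85 to 23.1 CPM in fasted and 1.99 to 10.6 CPM after leptin (2.85 ± 0.67, adjusted p = 0.0265). The remaining gene of the 8 that rose was the transcript 1700024P16Rik (1.96, adjusted p = 0.0152), so 7 of 8 were higher than fed, beside 3.73% of all genes. The 8 were chosen for a large difference from the same fed libraries, so this count is a description and no test. Apart from Nlrc3, they averaged under 1 CPM in fed libraries and entered the test mainly through the states where they were high. Kcnv2, a modifier subunit of potassium channels, had 26 counts over the fed and 262 over the leptin-treated libraries, 177 of them in library 3 (2.44 ± 0.73, adjusted p = 0.0652; called with the block). Leptin minus fasted was called for none of the 8 without the block. With the block, Lyve1, Svs2, Lpin3, 1700024P16Rik and Kcnv2 were lower than fasted, and Sphk1 was higher.

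Of the 8 that fell on fasting, 4 were lower than fed after leptin, beside 1.75% of all genes. They too were chosen on the same fed libraries, so this count is a description. The 4 were Umodl1 (fasted minus fed -1.46, leptin minus fed -1.74), Sec14l3 (-1.59 and -1.65), Msln (-1.53 and -1.44) and Gbp9, a guanylate-binding protein (-1.45 and -0.76). Cldn2, a claudin of tight junctions, had all leptin-treated libraries below the fed ones without passing (-2.31 and -0.89, adjusted p of the latter 0.0945, called with the block). It averaged 2.54 CPM in fed, 0.510 CPM in fasted and 1.38 CPM in leptin-treated libraries. Its place in the test rested mainly on the fed ones. Socs3 and Tnfrsf11b were higher than fed, as given above, and Fgfr4 was the other that did not pass.

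Other genes lay close to the fed level after leptin. Gpr6, a constitutively active receptor coupled to cyclic AMP, was at 15.1, 11.6 and 16.0 CPM in fed, 31.1 to 43.0 CPM in fasted and 12.4, 11.4, 16.0 and 9.84 CPM in leptin-treated libraries. Leptin-treated and fed libraries overlapped, with a difference of -0.20 (95% interval -0.58 to 0.19), and leptin minus fasted was -1.60 (adjusted p = 0.000546). Npas4, an activity-induced transcription factor, was at 0.978 to 1.56 CPM in fed, 2.87 to 7.03 CPM in fasted and 0.648 to 1.61 CPM after leptin, and Nr4a1, an orphan nuclear receptor of the same response, at 5.62 to 11.0, 12.8 to 34.1 and 4.14 to 8.74 CPM. Their leptin-minus-fed differences were -0.37 (95% interval -1.25 to 0.50) and -0.27 (95% interval -1.03 to 0.49), so both intervals reach past a 2-fold decrease. Fgfr4, a fibroblast growth factor receptor and one of the genes that fell most on fasting, was at 2.63 to 5.49 CPM in fed, 0.956 to 1.57 CPM in fasted and 2.43 to 4.90 CPM after leptin (-0.22, 95% interval -0.85 to 0.41). Ephb6, an ephrin receptor whose fasting difference of -0.44 was under the minimum, gave 0.11 (95% interval -0.13 to 0.36). Sox4, a transcription factor, stopped between the states, at 11.6 to 16.1 CPM in fed, 37.8 to 60.4 CPM in fasted and 23.2 to 28.8 CPM after leptin (0.91 ± 0.17 above fed, adjusted p = 0.00970).

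The immediate early genes, which neurons switch on within minutes of activity or growth factor signals, did not move as one group. Of 22 tested, 5 were higher (Maff, Jun, Myc, Junb, Fos) and 1 was lower, beside 3.73% and 1.75% of all genes. The lower one was Nr4a3, which is named after its values were seen. Jun was at 60.2 to 76.7 CPM in fed, 62.3 to 65.9 CPM in fasted and 119 to 165 CPM in leptin-treated libraries (1.03 ± 0.12, adjusted p = 0.000976). Fos was at 12.1 to 20.8 CPM in fed, 36.1 to 55.2 CPM in fasted and 26.1 to 32.6 CPM after leptin (0.76 ± 0.19, adjusted p = 0.0351), and leaving out any 1 of the 7 libraries ended its call. Fosb went the other way, at 8 to 16.6 CPM in fed and 4.69 to 6.94 CPM after leptin (-0.88 ± 0.25, adjusted p = 0.0563; called with the block), and Nr4a3 gave -1.10 (adjusted p = 0.0289). Of 13 MAP kinase phosphatase and Sprouty genes 0 passed, and 1 was higher with the block. Spry4, which restrains receptor tyrosine kinase signaling, gave 0.43 (adjusted p = 0.0359), under the minimum difference.

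Of 19 genes of the glucocorticoid receptor and its targets 8 were higher and 0 lower (median 0.43), beside 3.73% and 1.75% of all genes (median 0.01). Cdkn1a, the cell cycle inhibitor p21, was at 14.5 to 20.8 CPM in fed, 95.8 to 127 CPM in fasted and 64.7 to 96.8 CPM after leptin (2.16 ± 0.18, adjusted p = 0.000209). Mt2, a metal-binding metallothionein, was at 5.96 to 7.63 CPM in fed, 12.1 to 18.5 CPM in fasted and 16.1 to 47.0 CPM in leptin-treated libraries (2.23 ± 0.32, adjusted p = 0.00231). Nr3c2, the mineralocorticoid receptor, was at 29.5 to 31.2 CPM in fed, 23.7 to 30.2 CPM in fasted and 49.9 to 64.1 CPM after leptin (0.84 ± 0.12, adjusted p = 0.00186). These genes took different paths, with Cdkn1a above the fed range in fasted and leptin-treated libraries and Nr3c2 above it in the leptin-treated libraries.

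Of 19 clock genes 4 were lower (Per3, Per2, Bhlhe40 and Nr1d2, the last named after its values were seen) and 1 was higher (Nfil3), with a median of -0.21, and with the block 5 were lower. Of all genes 1.75% were lower and 3.73% higher, and with the block 3.23% were lower. Per3 was at 37.9, 51.6 and 47.1 CPM in fed, 20.3 to 25.6 CPM in fasted and 18.2, 24.7, 20.1 and 23.8 CPM in leptin-treated libraries (-1.07 ± 0.14, adjusted p = 0.00168). Per2, its paralog, was at 33.2 to 65.6 CPM in fed and 17.2 to 24.9 CPM in leptin-treated libraries (-1.06 ± 0.23, adjusted p = 0.0179). Both were below fed in every leptin-treated library, at about the fasted level. Bhlhe40, a repressor of the clock, lay between fasted and fed (17.7 to 27.6 CPM fasted, 25 to 37.3 CPM leptin-treated, 45.5 to 57.3 CPM fed), at -0.68 ± 0.17 (adjusted p = 0.0301), and its call was lost without the libraries numbered 4.

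Receptors for feeding peptides and transmitters split, with 3 of 28 higher (Gpr151, Drd1, Lepr) and 4 lower (Npy5r, Crhr1, Npy1r and Npy2r, the last named after its values were seen), and a median of -0.04. The shares of all genes were 3.73% higher and 1.75% lower. Npy5r, which carries the feeding signal of NPY, was at 15.6, 13.6 and 12.1 CPM in fed, 9.22 to 11.3 CPM in fasted and 7.25, 7.54, 7.21 and 5.49 CPM in leptin-treated libraries (-1.0 ± 0.13, adjusted p = 0.00168). Crhr1, the receptor of corticotropin-releasing hormone, was at 25.8 to 32.3 CPM in fed, 18.8 to 20.4 CPM in fasted and 12.6 to 18.1 CPM after leptin (-0.92 ± 0.13, adjusted p = 0.00211). For both, the leptin-treated libraries were the lowest of the 3 states. Npy1r was at 33.3 to 37.1 CPM in fed, 33.8 to 35.1 CPM in fasted and 22.7 to 28.9 CPM after leptin (-0.51 ± 0.10, adjusted p = 0.00890). Npy2r, the receptor through which NPY and PYY restrain these neurons, was at 237 to 328 CPM in fed, 99.0 to 153 CPM in fasted and 123 to 172 CPM in leptin-treated libraries (-0.92, adjusted p = 0.0100).

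Among the other lower genes, Pgr15l, a G protein-coupled receptor gene, was at 284, 298 and 220 CPM in fed, 148 to 208 CPM in fasted and 108, 108, 112 and 99.3 CPM in leptin-treated libraries (-1.32 ± 0.13, adjusted p = 0.000399). Cngb1, a subunit of cyclic nucleotide-gated channels, was at 61.8 to 67.8 CPM in fed and 21.1 to 28.7 CPM after leptin (-1.30 ± 0.17, adjusted p = 0.00145). The 4 leptin-treated libraries of each gene were all below the fed range. Aknad1 (-1.84), Umodl1 (-1.74), Sec14l3 (-1.65), the carboxypeptidase gene Cpa4 (-1.46), Msln, mesothelin (-1.44), Prr33 (-1.31), Tnfaip8l3 (-1.27) and Zmynd10 (-1.26) completed the 10 largest decreases. Prr33 averaged 2.035 CPM in fed, 1.05 CPM in fasted and 0.824 CPM in leptin-treated libraries. Its place in the test rested mainly on the fed ones. Ghrh, growth hormone-releasing hormone, a marker of other arcuate neurons, was at 3.43 to 4.52 CPM in fed and 1.05 to 1.98 CPM after leptin (-1.24 ± 0.21, adjusted p = 0.00629), the 1 call among 10 tested markers of other arcuate neurons (median -0.02).

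The lists that follow had shares of calls near or under the 5.48% of all genes, or slightly above it. Of 35 channel genes 1 was lower, Hcn3, a pacemaker channel, at 48.2 to 54.1 CPM in fed and 34.3 to 37.3 CPM after leptin (-0.52 ± 0.07, adjusted p = 0.00145), and of 27 glutamate and GABA receptor genes 0 passed. Of 23 activin, BMP and TGF-beta genes, the ligand Bmp2 was higher (1.08, adjusted p = 0.0152) and the ligand Bmp3 lower (-1.15, adjusted p = 0.0236). Of 18 insulin receptor and FoxO target genes 1 was higher, Igfbp3, a binding protein of insulin-like growth factors (0.59, adjusted p = 0.0421). Of 24 fatty acid oxidation and fuel switch genes 1 was higher, Angptl4, an inhibitor of lipoprotein lipase (0.90, adjusted p = 0.0259). None of 27 cholesterol genes passed (with the block 1 was higher, Abca1), 4 of 27 differences were positive and the median was -0.22. The sterol synthesis enzymes Dhcr7 (-0.42, adjusted p = 0.0127) and Msmo1 (-0.38, adjusted p = 0.0140) had an adjusted p below 0.05 but stayed inside the minimum difference.

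Markers of other cells gave few calls. None passed among 11 oligodendrocyte, 4 oligodendrocyte precursor, 7 microglial, 12 endothelial and mural, 8 POMC neuron and 2 blood genes, and of 11 tanycyte and ependymal genes 1 was higher, Vim, the intermediate filament vimentin (0.66, adjusted p = 0.0289). With the block 1 oligodendrocyte (Ugt8a), 1 microglial (Ctss) and 1 endothelial gene (Itm2a) were lower. Medians ran from -0.45 (microglia, 0 of 7 positive) to 0.10 (POMC neurons). The summed microglial level was 29.2 to 52.0 CPM in fed and 24.9 to 45.7 CPM in leptin-treated libraries, and that of oligodendrocytes 632 to 986 and 564 to 1017 CPM. The part of these markers in the results above was not tested. Of 44 genes that the study itself names for AgRP RNA, 23 were higher and 0 lower (median 0.80), but that choice was made on these samples and is not independent evidence.

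Several of the calls named above depended on which libraries were included. Leaving out any 1 of the 7 libraries ended the call of Nr1d2 (adjusted p 0.0518 to 0.127), 6 of 7 omissions ended those of Igfbp3 and Bmp3, 5 those of Vim, Tars, Bhlhe40, Svs2 and Nr4a3, 4 those of Angptl4 and Npy1r, 3 those of Junb and Gbp9, 2 those of Bmp2, Stat2, Serpina3c, Sec14l3 and Hcn3, and 1 those of Per2 and Sox4. The highest adjusted p and the library behind it follow. Besides Agrp and Lepr, it was reached without fed 1 for Igfbp3 (adjusted p = 0.152), Junb (0.0731) and Sox4 (0.0525). Without fed 3 it was reached for Nr1d2 (adjusted p = 0.127), Angptl4 (0.0995), Gbp9 (0.0779), Sec14l3 (0.0756), Stat2 (0.0748) and Bmp2 (0.0671). Without fed 4 it was reached for Vim (adjusted p = 0.122), Nr4a3 (0.116), Tars (0.112), Bhlhe40 (0.104), Svs2 (0.100), Bmp3 (0.0931) and Serpina3c (0.0711), and without leptin 3 for Per2 (0.0531). Npy1r and Hcn3 kept an adjusted p below 0.05 in each case but were inside the minimum difference in some.

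POMC neurons, the arcuate neurons that restrain feeding, were profiled in the same way, from male NuTRAP mice carrying POMC-IRES-Cre in place of AgRP-IRES-Cre, in 2 fed and 2 leptin-treated pools, and share no library with AgRP neurons. There edgeR called 0 of 13412 genes higher and 0 lower, with 155 and 127 at an unadjusted p below 0.05, DESeq2 called 4 and 3, and the replicate block 26 and 18. In POMC neurons, the 500 genes higher in AgRP neurons had a median difference of 0.09 (457 tested), the 235 lower ones -0.11 (232 tested), and all genes 0.00. The difference between the 2 cell types in leptin minus fed was tested directly. It was higher in AgRP neurons for 22 (0.164%) and lower for 3 (0.0223%) of 13435 genes, and with the replicate block, which uses the numbers of both cell types, for 469 and 248.

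Vgf had opposite signs. In POMC neurons it was at 1065 and 636 CPM in fed and 414 and 389 CPM in leptin-treated libraries (-1.08 ± 0.26, not called), and the difference between the cell types was 3.34 ± 0.41 (adjusted p = 0.00374). Gpr151 was at 1.45 and 0.907 CPM in fed and 1.32 and 1.37 CPM in leptin-treated POMC libraries, and differed between the cell types by 4.13 ± 0.47 (adjusted p = 0.00188). Timp1 and Thbd gave 4.5 and 3.61, and Manf 1.35. The 3 lower genes were Per3 (-1.46 ± 0.22, adjusted p = 0.0139), Myt1, a zinc finger transcription factor (-0.85), and the protein-coding gene D130043K22Rik (-0.76). Socs3 differed between the cell types by less than its error allowed to call (adjusted p = 0.968), with 1.35 in POMC neurons. For Agrp, the adjusted p of the difference was 0.997.

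**Figure D4:**
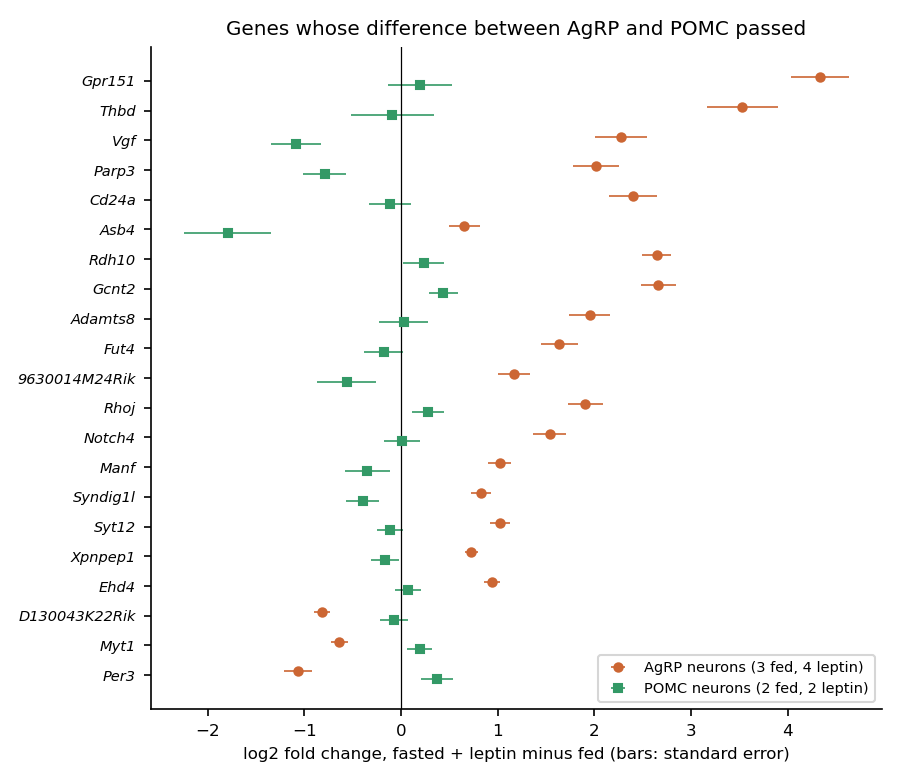
Log2 difference between leptin-treated and fed libraries (± SE) in AgRP (circles) and POMC neurons (squares) for 21 of the 25 genes whose difference between the cell types passed the test; 3 of the others were under the minimum level for the test in POMC neurons alone. AgRP values run from -1.07 (Per3) to 4.34 (Gpr151) and POMC values from -1.79 (Asb4) to 0.44 (Gcnt2).

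Chromatin was compared at start sites. ATAC-seq, which reads accessible DNA, was done on sorted AgRP nuclei in 2 fed and 2 leptin-treated pools of 4 mice, and these are other libraries than the RNA ones. Across 102237 peaks 23.3% were higher and 13.4% lower after leptin. The strongest peak within 1000 bases of a start site was taken for 9167 tested genes, and such peaks were shifted as a class, with a median of -0.29. Among the RNA-higher genes 28 of 333 (8.41%) had a higher and 13 (3.90%) a lower peak, with a median of -0.18, against 0.916% and 7.25% of all 9167. Among the RNA-lower genes 1 of 148 had a higher and 34 (23.0%) a lower peak, with a median of -0.39.

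The Slc10a6 start-site peak (chr5:103629042-103629771) was at 3.27 and 1.02 CPM in fed and 17.4 and 15.3 CPM in leptin-treated nuclei (3.12 ± 0.41, adjusted p = 2.23e-05), and that of Mt2 (chr8:94171324-94171838) at 2.90 and 7.46 and at 31.7 and 30.3 CPM (2.45 ± 0.31, adjusted p = 1.51e-05). Peaks of Timp1 (1.52), Sphk1 (1.59), Cd68 (1.49), Cdkn1a (0.95) and Atf3 (0.64) were also higher. The peak over the Socs3 start site (chr11:117968417-117970130), which covers the stretch printed above, was at 62.6 and 74.3 CPM in fed and 68.5 and 59.4 CPM in leptin-treated nuclei (-0.11 ± 0.16, adjusted p = 0.607). Steap4 (1.35 ± 0.57, adjusted p = 0.0666) and Serpina3i (0.18 ± 0.19, adjusted p = 0.456) did not pass at their start sites. Among genes with lower RNA, peaks were lower for Prr33 (-1.55), Pgr15l (-0.89) and Per3 (-0.80, 58.5 and 74.3 CPM in fed, 38.4 and 38.3 CPM in leptin-treated nuclei). Npas4 (-0.81) and Gpr6 (-0.53), whose RNA was near the fed level, had lower start-site peaks too.

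**Figure D5:**
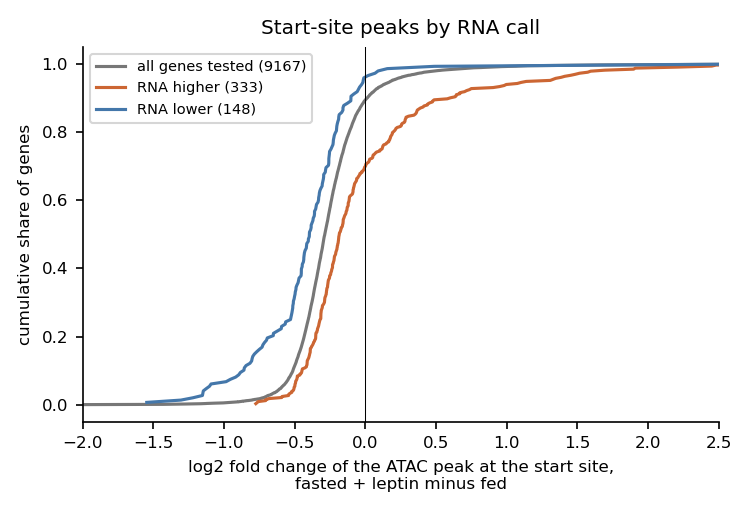
Cumulative share of genes (vertical axis) against the log2 difference of the start-site ATAC peak between leptin-treated and fed AgRP nuclei (horizontal axis), for all tested genes with a peak (grey, 9167), genes with higher RNA (orange, 333) and genes with lower RNA (blue, 148). The medians are -0.29, -0.18 and -0.39, and the orange curve has the longest tail to the right.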

How the data were processed

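The authors aligned reads with HISAT2 and deposited raw gene counts from featureCounts on a GRCm38 (mm10) annotation edited to reduce overlapping transcripts, and raw ATAC-seq counts over peaks; tool versions are not given in the sources used here. Genes averaging over 1 CPM were tested with edgeR 4.0.16 (R 4.3.3; quasi-likelihood, TMM, Benjamini-Hochberg) in 1 model of the 11 AgRP libraries, without a block. Fold changes are the model's, levels are CPM means, intervals 95%. POMC neurons, the difference between cell types and ATAC peaks had models of the same kind. Whole-arcuate and control pull-down samples were not analysed here, and some genes are not reported.

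Each test was run first on simulated counts. Genes named are the 10 largest non-overlapping calls each way, the 4 lowest adjusted p values of each list, genes the study names, the 8 largest fasting changes each way and the 5 largest differences from POMC neurons each way, not all printed. Members and lists were chosen with earlier results of these data known. Alternatives were DESeq2 1.42.0, other scalings and filters, a replicate block and left-out libraries.

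Replicate numbers paired the AgRP RNA libraries: deviations from group means correlated at 0.685 to 0.838 in the 3 fed and leptin pairs of the same number and at -0.669 to 0.673 in the 9 others. No label says what a number stands for. Depth was 8263234 to 17190963 counts in the ATAC libraries. P-values measure the spread between pools.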

Additional observations from a re-analysis of the deposited data

Results flagged for a closer look

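In 9 of 198 groups of 4 libraries examined, 1 library lay far from the other 3, and chance alone gives about 1 in 20. In the leptin-treated group the highest library was at 19.4 CPM for Stat2 (library 1, next 13.8), 64.1 CPM for Nr3c2 (library 1, next 51.4), 142 CPM for Manf (library 3, next 114), 3.27 CPM for Kcnv2 (library 3, next 0.900) and 28.9 CPM for Npy1r (library 2, next 22.8). The lowest was at 5.49 CPM for Npy5r (library 4, next 7.22). In the fasted group Spry4 reached 92.8 CPM (library 4, next 74.8), Spry2 reached 29.6 CPM (library 2, next 25.2) and Tnfrsf11b was lowest at 0.731 CPM (library 4, next 1.25).

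The leptin-minus-fed difference was tested between AgRP and POMC neurons, and 8 of the genes named passed. It was greater in AgRP neurons for Timp1 (4.5), Gpr151 (4.13), Thbd (3.61), Vgf (3.34) and Manf (1.35), and more negative there for Per3 (-1.46), Myt1 (-0.848) and D130043K22Rik (-0.762).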

How the results depend on the processing

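No call of the AgRP comparison changed direction under any alternative run. Its 500 higher and 235 lower genes became 194 and 135 with library size as the only scaling (median of all genes -0.04), 777 and 414 without a minimum difference, and 404 and 153 in the 7 libraries alone. With the replicate block, which follows the pairing, 715 were higher and 433 lower, and without the libraries numbered 4 there were 519 and 365. RLE size factors (471 and 248), DESeq2 (556 and 312) and no CPM filter (538 and 217) stayed within 1.5 times. Leaving out 1 library gave 268 to 613 higher and 108 to 255 lower genes: fed 4 (268), fed 1 (312) and leptin 3 (325) moved the higher count by over 1.5 times, and fed 1 (108), fed 3 (115), leptin 3 (132), leptin 1 (151) and fed 4 (154) the lower one. The causes were not tested.

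For POMC neurons, the replicate block called 26 higher and 18 lower and DESeq2 called 4 and 3, against 0 and 0. For the difference between cell types, 22 and 3 genes became 469 and 248 with the replicate block, 108 and 34 with DESeq2, and 10 and 1 with library size only. Leaving out 1 library gave 7 (POMC fed 1) to 57 (AgRP leptin 4) higher and 0 (POMC fed 1) to 3 lower genes. For ATAC peaks, leaving out leptin 2 gave 7068 and leptin 1 gave 7785 lower peaks, against 13747, with 7068 to 12035 over all 4 libraries and 16658 to 18502 higher ones. Fed and leptin-treated ATAC libraries of the same number had a correlation of deviations of -0.00552, and over all states the median was 0.17. With 2 libraries per state, deviations mirror each other, so these values say little about pairing. The replicate block gave 26062 higher and 16493 lower peaks.

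Depth limits genes with few fed counts, such as Fga and Fgb, whose folds have no firm size. With the replicate block 23 of 32 lists gained calls and none lost any in number. POMC and ATAC groups of 2 libraries limit every call made there.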
